A study of Mus musculus with 33 samples.

Results

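The genes described here encode the subunits of voltage-gated sodium channels, voltage-gated calcium channels and hyperpolarization-activated cyclic nucleotide-gated (HCN) channels in the frontal cortex of adult male mice. They were taken by name alone: every gene of the expression table called Scn with a number and the letter a or b, Cacna1 with a letter from a to i, Cacna2d with a number, Cacnb with a number, or Hcn with a number. This rule gave 34 of the 21565 genes, of which 31 are described, namely 8 sodium channel alpha genes, 3 sodium channel beta genes, 9 calcium channel alpha1 genes, 4 alpha2delta genes, 4 calcium channel beta genes and 3 HCN genes. RNA was sequenced from 33 mice, 1 library for each mouse, all on a C57BL/6J background, aged 8 to 19 weeks, held in the dark for 36 hr beforehand and killed at Zeitgeber time (ZT) 6. Wild-type (WT, C57BL/6J) mice had either slept ad libitum (control sleep, CS, n = 6), been kept awake on a treadmill for 6 hr (sleep deprivation, SD, n = 7), or been kept awake for 4 hr and then allowed 2 hr of recovery sleep (RS, n = 7). Mef2c f/f mice, whose Mef2c gene carries loxP sites around exon 11 and who have no Cre, were studied in CS (n = 4) and SD (n = 3). Mef2c-cKO mice carry the same floxed alleles together with a Cre transgene driven by the Camk2a promoter, which is active in excitatory neurons of the forebrain, and were studied in CS (n = 3) and SD (n = 3). In this cross some offspring also inherited a Mef2c allele that had recombined in the germline, which the study describes for 2 of the 3 sequenced Mef2c-cKO CS mice. In such mice, cells that Cre does not reach hold 1 intact copy. Brain tissue held recombined and unrecombined alleles side by side, so Mef2c-cKO cortex is a mixture of cells with and without an intact copy.

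Together these channels set how a cortical neuron fires. Sodium channel alpha subunits form the pore that opens at threshold and drives the action potential, and the beta subunits are small membrane proteins that adjust gating and hold the channel at its place in the axon. Calcium channel alpha1 subunits fall into the L-type (Cacna1c, Cacna1d and the retinal Cacna1f), the P/Q-, N- and R-type (Cacna1a, Cacna1b and Cacna1e), which trigger transmitter release, and the T-type (Cacna1g, Cacna1h and Cacna1i), which open near the resting potential and support burst firing in sleep rhythms. The alpha2delta and cytosolic beta subunits bring the alpha1 pore to the membrane. HCN channels open on hyperpolarization, are modulated by cAMP, and pass the inward current that sets resting potential, dendritic integration and rhythmic activity. MEF2C, the protein that the floxed gene encodes, is a transcription factor that binds an AT-rich motif and acts in neurons on activity-regulated genes.

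Read totals recovered from the table ran from 18935045 to 249046089 a library, with 44395583 to 218548740 in WT CS, 57394212 to 145658838 in WT SD, 53595657 to 249046089 in WT RS, 18935045 to 40576940 in Mef2c f/f CS, 35010033 to 52918796 in Mef2c f/f SD, 34597589 to 38312401 in Mef2c-cKO CS and 29593825 to 94678945 in Mef2c-cKO SD. Within groups the rank correlation between libraries was 0.931 to 0.997 (Spearman rho over genes). Values are CPM, the reads of a gene scaled to the total of its library, divided by a size factor for that library and here called rescaled CPM. All 8 markers of excitatory neurons and all 9 of inhibitory neurons were detected in every group. The summed excitatory markers ran from 1721 to 2401 rescaled CPM in WT RS and 1802 to 2212 in WT CS. Only exon 11 of Mef2c is removed, so the count of the whole gene is no measure of the deletion, and it did not pass the test between Mef2c-cKO and Mef2c f/f in CS (log2 fold change 0.27) or in SD (0.05). In tissue, fewer cells of a type and less RNA per cell cannot be told apart. The listed genes of a WT library summed to 925580 to 985958 CPM and those of the other genotypes to 1000000 CPM, so levels were not tested between WT and the other genotypes.

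Promoter sequence is shown for 4 of the genes that differed in the same direction between Mef2c-cKO and Mef2c f/f in both sleep states, because a transcription factor was deleted there. Each run is the 250 bases before an annotated RefSeq start on the mouse assembly GRCm38.p6, written 5′ to 3′ on the strand of the gene, and capitals mark the GC box GGGCGG or its reverse complement CCGCCC. Hcn4 was the gene that was higher in Mef2c-cKO, and its window lay at chr9:58822699-58822948 on the plus strand. Cacna1b, Cacna2d3 and Scn8a were lower, with windows at chr2:24763153-24763402 (minus strand), chr14:29721865-29722114 (minus strand) and chr15:100870395-100870644 (plus strand).
Hcn4: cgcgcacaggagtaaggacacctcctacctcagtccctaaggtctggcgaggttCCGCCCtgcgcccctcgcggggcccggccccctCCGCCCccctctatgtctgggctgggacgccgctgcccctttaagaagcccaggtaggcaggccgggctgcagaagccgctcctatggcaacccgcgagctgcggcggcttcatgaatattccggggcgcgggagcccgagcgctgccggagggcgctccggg
Cacna1b: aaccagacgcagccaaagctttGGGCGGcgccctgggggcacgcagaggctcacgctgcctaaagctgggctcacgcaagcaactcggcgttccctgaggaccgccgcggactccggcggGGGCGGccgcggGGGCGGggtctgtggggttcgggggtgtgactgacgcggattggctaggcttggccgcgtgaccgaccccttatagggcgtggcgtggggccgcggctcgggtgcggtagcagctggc
Cacna2d3: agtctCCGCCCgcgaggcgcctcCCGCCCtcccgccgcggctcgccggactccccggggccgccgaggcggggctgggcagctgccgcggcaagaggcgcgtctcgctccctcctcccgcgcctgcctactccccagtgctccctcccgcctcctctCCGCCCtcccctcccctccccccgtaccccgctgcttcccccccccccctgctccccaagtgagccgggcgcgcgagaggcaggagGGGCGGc
Scn8a: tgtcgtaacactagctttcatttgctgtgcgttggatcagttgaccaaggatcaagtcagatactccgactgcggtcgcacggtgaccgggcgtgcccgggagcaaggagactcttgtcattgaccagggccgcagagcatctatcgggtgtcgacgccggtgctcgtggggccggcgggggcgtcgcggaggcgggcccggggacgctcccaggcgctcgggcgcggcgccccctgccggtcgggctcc

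The first 3 windows were 71.2%, 72.0% and 80.0% G or C and held 2, 3 and 4 GC boxes, and the Scn8a window shown was 68.0% G or C and held none. Other windows of the genes called in both states are not shown. A further Scn8a start (53.2% G or C) and a Cacnb4 start (48.8%) held 0 GC boxes. Windows that overlap exons were 71.2% and 79.6% G or C for Cacnb4, with 0 and 6 boxes, and 46.8% for Scn1a, with 0. A RefSeq window was found for 24 of the 31 genes, 33 windows in all, and for 6 of the 7 genes called in both sleep states (none for Cacna1a). GC boxes stood in 14 of these 33 windows, against 32.7% of 32851 windows of the same length across the genome. The MEF2 motif, searched on both strands, stood in 0 of the 33 windows and in 2.92% of all windows, and the cAMP response element TGACGTCA, a palindrome, stood in 0 of the 33 and in 1.55% of all windows. No match says only that these letters are absent from these 250 bases.

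Levels per kb of exon separated a small set of abundant subunits from a long tail. In WT CS, 2 alpha2delta genes and a beta gene of calcium channels led the genes described, with levels of 87.9 ± 17.1 rescaled CPM per kb (SD, n = 6) for Cacna2d3, 78.7 ± 18.4 for Cacna2d1, the gabapentin receptor, and 78.1 ± 6.93 for Cacnb4. The libraries of these 3 neighbours in the order overlapped, so that they did not differ beyond their spread. The length used is that of all annotated exons of a gene together. For Cacnb2 it is 13228 bases, against 3945 for the longest coding transcript, and for Cacnb4 8963 against 8225. The order of such genes therefore depends on the length chosen. Among the sodium channel pores described, which leave out Scn2a, the level was 48.0 ± 12.3 for Scn1a, which is known for its place in fast-spiking interneurons. It was 29.8 ± 2.66 for Scn8a, the channel of the axon initial segment and nodes. Cacna1e, the R-type pore, led the calcium channel alpha1 genes with a level of 33.4 ± 2.72 rescaled CPM per kb. Hcn2 stood at 16.3 ± 4.77, whereas Hcn3 and Hcn4 stood at 1.31 ± 0.459 and 0.600 ± 0.221. Beside Hcn4, low levels that passed the filter belonged to Scn9a, a channel best known from sensory neurons, at 0.747 ± 0.358, and to Cacna2d4 at 0.354 ± 0.0567.

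**Figure D1:**
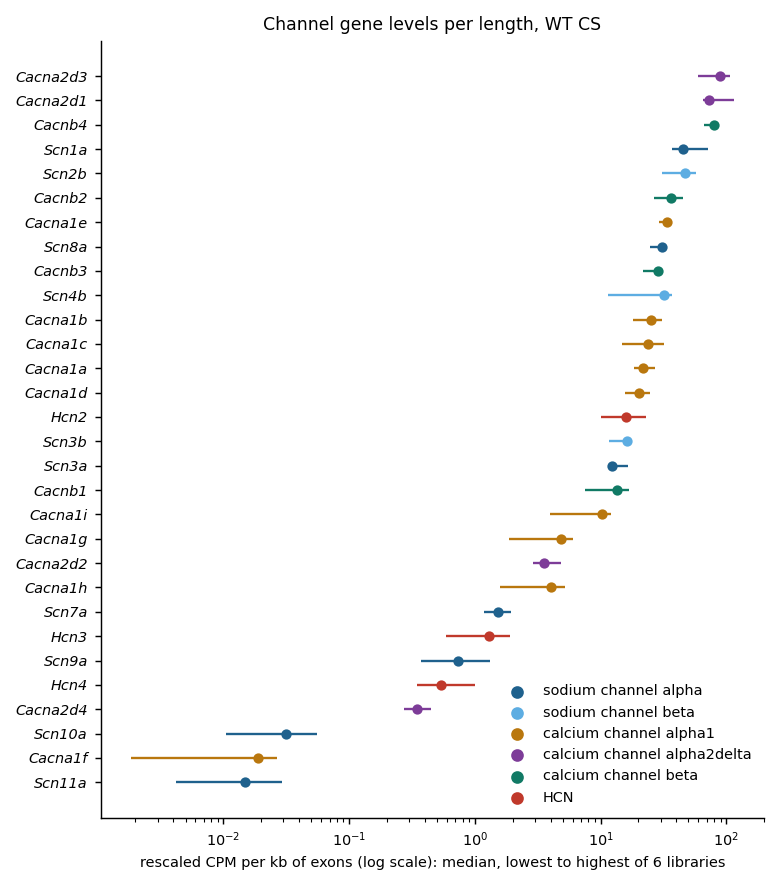
Levels of 30 of the 31 channel genes in the 6 WT CS libraries, in rescaled CPM per kb of exon on a log axis, with a point at the median, a line from the lowest to the highest library and colours for the 6 families. Cacna2d3 stands at the top with a mean of 87.9, the 3 genes at the bottom are those under the CPM filter, and Scn4a is not drawn because a library listed it at 0.

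In all, 27 of the 31 genes passed the filter (CPM at or above 1 in every library of a compared group) in every comparison, and 4 passed in none. Cacna1f, the L-type pore of the retina, ran from 0.0119 to 0.822 CPM over the 33 libraries. Scn10a and Scn11a, channels of nociceptive neurons, ran from 0.0537 to 0.610 and from 0 to 1.05 CPM, and Scn11a reached 1 CPM in 1 library. Scn4a, the skeletal muscle channel, ran from 0 to 0.107 CPM and was listed at 0 in 10 libraries. A count of 0 allows up to 3 reads, which is 0.158 CPM in the shallowest library and 0.0120 CPM in the deepest, for counting error only. Scn2a, the other main pore of cortical neurons, stands in the table under its older name Scn2a1, which the rule does not take. Its level in WT CS was 952 ± 248 rescaled CPM (SD, n = 6), above the 535 ± 137 of Scn1a. The exons of the 2 genes are 12732 and 11146 bases long.

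The comparison of SD with CS in WT mice asks how 6 hr without sleep moved channel transcripts, and 15 of the 27 genes tested changed. Of the HCN genes, Hcn2, Hcn3 and Hcn4 rose. The sodium channel pores Scn1a, Scn3a and Scn7a fell, and so did Cacna2d1, Cacnb4, Cacnb2 and the calcium channel pores Cacna1d and Cacna1e, while the T-type pores Cacna1g and Cacna1h and the beta genes Cacnb1 and Scn2b rose. In all, 7 genes rose and 8 fell at a limma adjusted p of at most 0.05 and a log2 fold change of at least 0.3 in size. Over all 12913 genes tested the same rule called 24.6% higher and 20.5% lower, next to 25.9% and 29.6% of the 27 genes. The median log2 fold change was -0.14 over the 27 genes and 0.04 over all genes tested. The groups did not overlap for 4 of the 27 genes, all of them lower in SD, against 15.1% of all genes tested. Without rescaling, on CPM as deposited, the split of the calls was 12 higher and 4 lower, with the median of all genes at 0.30, and under quantile normalization it was 9 higher and 3 lower.

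Among sodium channel alpha genes, 3 of the 5 tested fell and none rose. Scn1a ran from 411 to 792 (median 502) rescaled CPM in CS and from 263 to 341 (median 306) in SD. Every SD library lay below every CS library, and the log2 fold change was -0.76 ± 0.13 (SE; limma adjusted p = 0.00116). Scn3a, a pore that is strongest before birth, ran from 148 to 205 (median 155) in CS and from 106 to 134 (median 126) in SD. Its groups did not overlap either, with a log2 fold change of -0.41 ± 0.09 (SE; limma adjusted p = 0.00383). Scn7a, an atypical member that senses sodium and is found in glia, fell by a smaller margin over its spread, from 8.65 to 14.2 (median 11.3) to 5.79 to 9.15 (median 6.40), and the 2 highest SD libraries reached into the CS range. Its log2 fold change was -0.62 ± 0.14 (SE; limma adjusted p = 0.00372). Scn8a did not pass the fold limit (-0.27, limma adjusted p = 0.0171), and Scn9a did not pass the test (-0.37, adjusted p = 0.254).

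Sodium channel beta genes all had positive fold changes, of which 1 of 3 passed. Scn2b ran from 143 to 269 (median 219) in CS and from 227 to 309 (median 249.8) in SD, with a log2 fold change of 0.31 ± 0.12 (SE; limma adjusted p = 0.0496), and it lost the call in 11 of the 13 fits that left out a library. Scn4b, a beta subunit of striatal and fast-spiking neurons, had the largest value of these genes with a wide spread (0.63, interval -0.01 to 1.28). Its 2 lowest CS libraries stood at 57.0 and 63.1 rescaled CPM and the other CS libraries at 147 or more. Scn3b had a log2 fold change of 0.08. The 3 beta genes passed as higher on CPM as deposited and 2 of them under quantile normalization, whereas after a correction for GC content none passed.

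Of the 8 calcium channel alpha1 genes tested, 2 rose and 2 fell, whereas on CPM as deposited and under quantile normalization 3 passed as higher and none as lower. The R-type pore Cacna1e ran from 730.4 to 931 (median 847) in CS and from 536 to 793 (median 677) in SD, and its log2 fold change was -0.36 ± 0.10 (SE; limma adjusted p = 0.0111). The 2 highest SD libraries lay above the lowest CS library, and under quantile normalization its value was above 0 (0.07). Cacna1d, an L-type pore, fell from 198 to 315 (median 256) to 119.8 to 272 (median 180.0), with wide overlap and a log2 fold change of -0.47 ± 0.18 (SE; limma adjusted p = 0.0395). Cacna1c, the other cortical L-type pore, did not pass (-0.26, interval -0.80 to 0.28). Both presynaptic pores also did not pass, with -0.25 for Cacna1a and -0.14 for Cacna1b.

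All 3 T-type pores had positive values. Cacna1h ran from 15.4 to 50.7 (median 39.2) in CS and from 44.6 to 83.4 (median 67.5) in SD. The 4 highest SD libraries, at 67.5 or more, lay above every CS library, and the log2 fold change was 0.89 ± 0.25 (SE; limma adjusted p = 0.0125). Cacna1g ran from 18.98 to 61.0 (median 48.8) and from 50.4 to 83.0 (median 62.5), a log2 fold change of 0.65 ± 0.24 (SE; limma adjusted p = 0.033), and it lost the call in 6 of 13 fits without a library. Cacna1i had a value of similar size that did not pass (0.53, limma adjusted p = 0.0687). Its 2 lowest CS libraries stood at 39.1 and 53.6 rescaled CPM and the other CS libraries at 93.3 or more.

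Of the auxiliary calcium channel subunits, Cacna2d1 and Cacnb4 showed the clearest separation. Cacna2d1 ran from 817 to 1435 (median 907) in CS and from 494 to 652 (median 559.6) in SD. No SD library reached the lowest CS library, and the log2 fold change was -0.76 ± 0.12 (SE; limma adjusted p = 0.000873). Cacnb4, a gene whose loss causes ataxia and seizures in mice, ran from 595 to 758 (median 718) and from 384 to 550.3 (median 426), again without overlap, with a log2 fold change of -0.64 ± 0.10 (SE; limma adjusted p = 0.000806). Cacnb2 fell with overlap, by a log2 fold change of -0.43 ± 0.16 (SE; limma adjusted p = 0.0389). Cacnb1, which is best known as the subunit of skeletal muscle, rose from 34.0 to 76.1 (median 60.7) to 73.3 to 91.8 (median 86.4), with a log2 fold change of 0.55 ± 0.15 (SE; limma adjusted p = 0.011). Cacna2d2, Cacna2d3, Cacna2d4 and Cacnb3 did not pass, with log2 fold changes between -0.33 for Cacna2d3 and 0.30 for Cacna2d2.

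Hcn2, Hcn3 and Hcn4 passed as higher. Hcn2, a cAMP-sensitive subunit of cortex and thalamus, ran from 32.3 to 73.7 (median 50.8) rescaled CPM in CS and from 65.3 to 94.5 (median 82.2) in SD. A single CS library lay inside the SD range, and the log2 fold change was 0.68 ± 0.16 (SE; limma adjusted p = 0.00569). Hcn3 rose from 2.45 to 7.87 (median 5.36) to 5.96 to 12.4 (median 8.13) and Hcn4, the pacemaker subunit of the heart, from 2.12 to 6.12 (median 3.29) to 4.42 to 9.29 (median 5.43). Their log2 fold changes were 0.66 ± 0.22 (SE; limma adjusted p = 0.0218) and 0.67 ± 0.19 (SE; limma adjusted p = 0.0128). Per kb of exon the order of these 3 was the same in SD as in CS, with 25.5 ± 3.40 rescaled CPM per kb for Hcn2, 2.07 ± 0.512 for Hcn3 and 0.984 ± 0.262 for Hcn4.

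**Figure D2:**
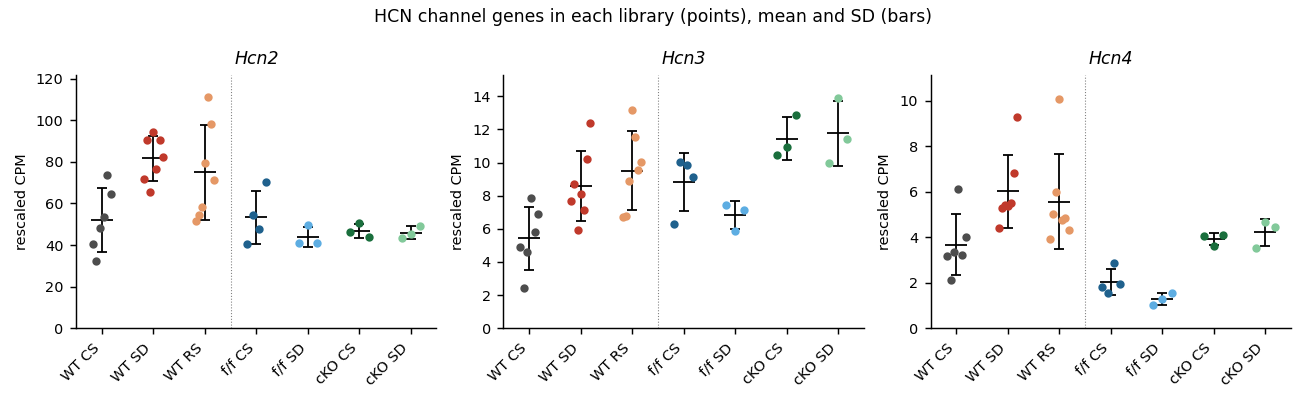
Rescaled CPM of Hcn2, Hcn3 and Hcn4 in each of the 33 libraries (points), by genotype and sleep group, with black bars for the mean and SD of each group and vertical axes that start at 0. In WT mice all 3 genes sit higher in SD than in CS with overlap, and Hcn4 of Mef2c-cKO lies above all Mef2c f/f libraries in both sleep states.

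The changes followed base composition. Over the 27 genes, the log2 fold change from CS to SD had a Spearman correlation with the GC content of the transcript of 0.866, and over 12443 genes of the table of 0.729, as a description across genes that share the same libraries. The 7 genes that rose had transcripts of 50.5% to 65.4% G or C and the 8 that fell of 40.2% to 48.6%, so that the called genes separated completely by this property. Hcn2, Hcn3 and Hcn4 are 65.4%, 58.0% and 58.0% G or C. The libraries themselves differed in this way: the correlation of a library's deviation from the mean of all libraries with GC content ran from -0.75 to -0.094 in WT CS, from 0.016 to 0.78 in WT SD and from -0.27 to 0.69 in WT RS. With the smooth trend on GC content and transcript length removed from each library, 4 of the 27 genes passed instead of 15, and 2 of these were among the 15. Cacna1h (0.51, limma adjusted p = 0.0208) passed as higher and Scn1a (-0.32, adjusted p = 0.00616) as lower in both. Cacna1a (-0.56) and Cacnb3 (-0.32) passed as lower only after the correction. Before it Cacnb3 stood higher in SD, with means of 111 rescaled CPM in CS and 130 in SD, so its sign was reversed. Hcn2 stood at -0.01 on that scale, Hcn3 at 0.27 and Hcn4 at 0.34, and none of the 3 passed. The share of all genes called after the correction is not given here, so these counts do not compare the channel genes with other genes. The GC trend of the libraries moved with the sleep groups, and what gave rise to it was not tested.

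**Figure D3:**
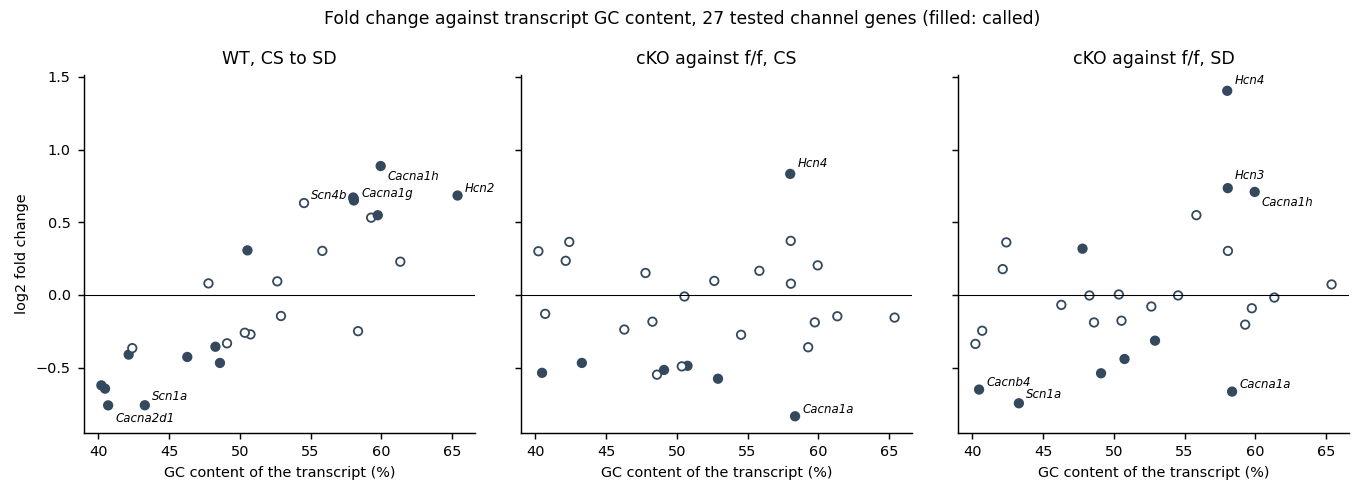
Log2 fold change of each of the 27 tested channel genes against the GC content of its transcript in percent, for WT SD against CS and for Mef2c-cKO against Mef2c f/f in CS and in SD, with called genes filled. In WT mice the 8 called genes below 0 reach at most 48.6% G or C and the 7 above 0 start at 50.5%, whereas between genotypes in CS the rank correlation with GC content is -0.00366.

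Markers of cell types also moved in this comparison, next to 24.6% of all genes called higher and 20.5% lower. Summed markers of meningeal fibroblasts ran from 8.38 to 34.1 rescaled CPM in WT CS and 37.0 to 62.8 in WT SD, with 2 of 4 tested markers higher. Those of striatal neurons ran from 145 to 304 and 224 to 484, with 2 of 4 higher. Excitatory markers ran from 1802 to 2212 and 1961 to 2474, with 1 of 8 higher and 2 lower. Inhibitory markers ran from 820.3 to 1327 and 791 to 1209.5, with 2 of 9 higher and 1 lower. Of 6 astrocyte markers 2 were higher, and of 6 oligodendrocyte markers 2 were higher and 1 lower. Of 2 markers of oligodendrocyte precursors 1 was higher. Microglial, endothelial, and pericyte and smooth muscle markers had 1 higher and 1 lower in each list. Their part in the channel genes was not tested. Leaving out each of the 13 libraries in turn gave between 11 and 15 calls, and 11 of the 15 genes kept theirs in all 13 fits, the exceptions being Cacna1d, Cacna1g, Cacnb2 and Scn2b.

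In RS mice, deprived for 4 hr and then left to sleep for 2 hr, 7 of the 27 genes differed from CS. These libraries were compared with the same 6 CS libraries, so the values of RS and SD against CS are not independent of each other. Cacna1h, Hcn3 and Cacnb1 were higher and Scn7a, Cacnb4, Cacna2d1 and Cacna1d lower. Over all genes tested 9.28% were called higher and 8.22% lower, and the groups overlapped for every member, against 3.72% of all genes without overlap. Cacnb4 ran from 376 to 629 (median 487) rescaled CPM in RS, with 1 library above the lowest CS value, and its log2 fold change was -0.54 ± 0.12 (SE; limma adjusted p = 0.0329). Cacna2d1 ran from 493 to 860.4 (median 635), a log2 fold change of -0.53 ± 0.15 (SE; limma adjusted p = 0.0375). Scn7a and Cacna1d had log2 fold changes of -0.56 ± 0.14 (SE; limma adjusted p = 0.0347) and -0.47 ± 0.14 (SE; limma adjusted p = 0.0391).

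On the upward side, Cacna1h ran from 49.7 to 89.6 (median 55.4), a log2 fold change of 0.86 ± 0.24 (SE; limma adjusted p = 0.0388). Only its lowest RS library lay inside the CS range. Hcn3 and Cacnb1 had log2 fold changes of 0.80 ± 0.22 (SE; limma adjusted p = 0.0377) and 0.51 ± 0.16 (SE; limma adjusted p = 0.0452). Scn1a, which fell in SD, did not pass in RS (-0.41, limma adjusted p = 0.0872), and 1 RS library stood at 640.0 against 423 for the next. Markers of cell types also moved, next to 9.28% of all genes called higher and 8.22% lower. Of 4 striatal markers 2 were higher in RS, with sums of 145 to 304 rescaled CPM in CS and 262 to 415 in RS. Of 9 inhibitory markers 2 were higher, with sums of 868 to 1338 in RS, and of 8 excitatory markers 2 were lower, with sums of 1721 to 2401. Of 6 astrocyte, 6 oligodendrocyte and 2 oligodendrocyte precursor markers, 1 of each list was higher. No microglial, endothelial, pericyte, smooth muscle or meningeal fibroblast marker passed. Their part in the channel genes was not tested. These calls depended on single libraries. None was left without WT RS 3, 4, 5, 6 or 12, or without WT CS 2 or 3, 1 was left without WT CS 1, and 11 were called without WT RS 1. After the GC correction 1 gene passed, Cacna1a (-0.48, adjusted p = 0.0236), and none of the 7. The correlation with GC content was 0.764 over the 27 genes and 0.721 over all genes. On CPM as deposited the split was 4 higher and 3 lower, with the median of all genes at 0.20 against 0.02, and under quantile normalization 3 higher and 1 lower.

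No member was called between SD and RS in WT mice, where 0.0232% of all genes were called. At an unadjusted p of at most 0.05 there were 3 genes by limma, all sodium channel pores, against 5.29% of all genes, and edgeR and DESeq2 called 0. Scn1a was higher in RS by a log2 fold change of 0.35 (interval 0.07 to 0.63), Scn3a by 0.22 (interval 0.03 to 0.40) and Scn9a by 0.55 (interval 0.07 to 1.03), with a limma adjusted p of 0.765, 0.827 and 0.838. All 5 sodium channel pores tested had positive values here, from 0.06 upward, but after the GC correction Scn7a stood at -0.06 and Scn3a at 0.11. The correlation with GC content was -0.690 over the 27 genes and -0.506 over all genes. Hcn2 had a value of -0.17, with an interval of -0.50 to 0.17, which includes 0.

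**Figure D4:**
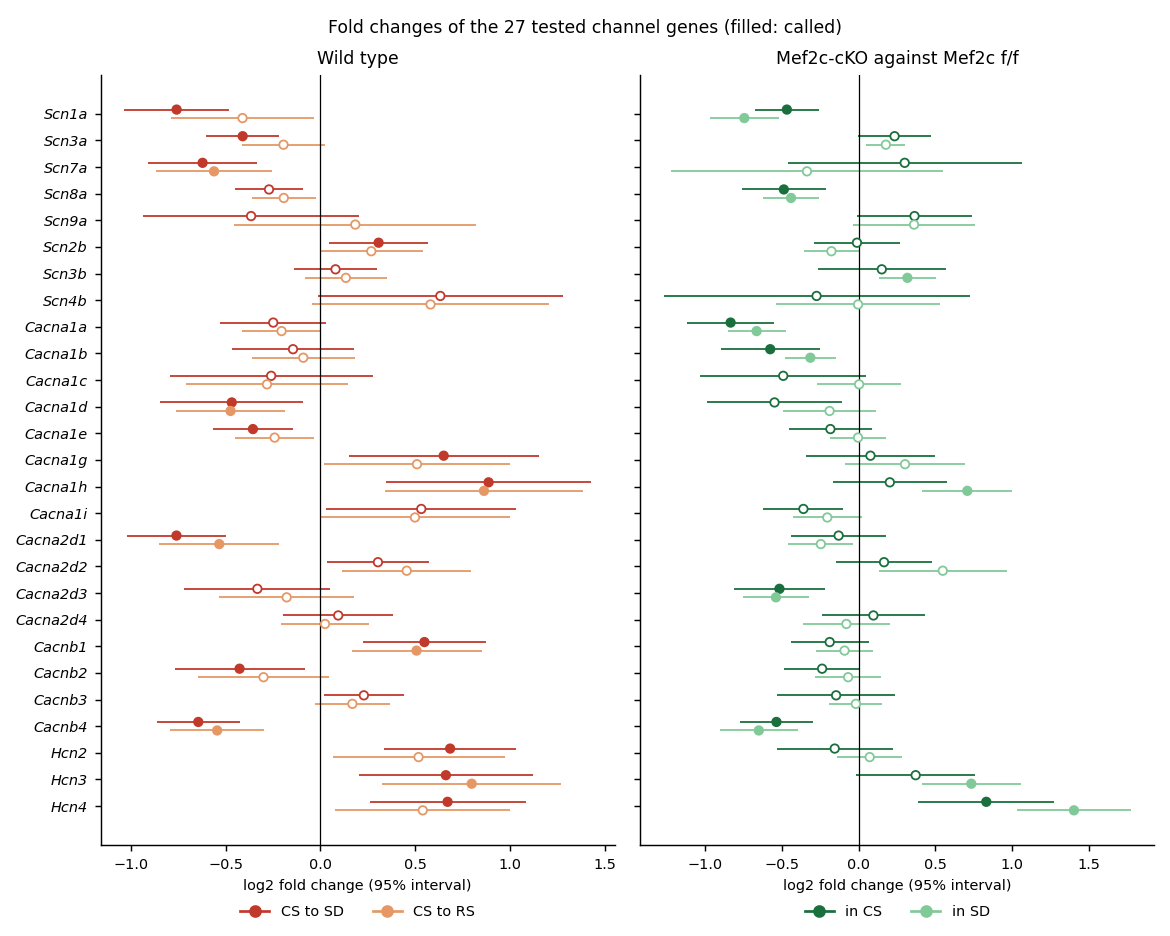
Log2 fold changes of the 27 tested genes with 95% intervals (lines) and filled points for called genes, in WT mice for SD and RS against CS and, in the other panel, for Mef2c-cKO against Mef2c f/f in CS and SD. Filled points number 15 and 7 in the WT panel and 7 and 10 in the genotype panel, and Cacna1a, Cacna1b, Cacna2d3, Scn3b and Scn8a are filled in the genotype panel alone.

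The same deprivation in Mef2c f/f mice called none of the 27 genes by limma, against 0.0403% of all genes. The study, with DESeq2 and the same thresholds, reported many more changed genes for this comparison. This low share is therefore that of the limma fit and does not show that these mice lacked a response. By limma 6 genes had an unadjusted p of at most 0.05, against 17.0% of all genes. Of the members, edgeR called 0 and DESeq2 called 1, and the share of all genes with these tools is not given here. The 6 genes were Cacna1a, Cacna1b, Cacna1c, Cacna1d, Cacna1h and Hcn4, all with values below 0. Cacna1h stood at 29.0, 33.9, 42.9 and 44.8 rescaled CPM in the CS libraries and at 24.8, 24.9 and 28.9 in the SD libraries. The groups did not overlap, with a log2 fold change of -0.50 ± 0.15 (SE; limma adjusted p = 0.166). Cacna1d stood at 190.2, 218, 230.1 and 337 and at 170.0, 172 and 186, likewise without overlap, and its log2 fold change was -0.44 ± 0.16 (SE; limma adjusted p = 0.223). These were the 2 members of 27 whose groups did not overlap, against 17.4% of all genes. Hcn4 had -0.49 ± 0.20 (SE; limma adjusted p = 0.248). The correlation of the fold changes with GC content was -0.453 over the 27 genes and -0.317 over all genes, the reverse of WT mice.

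Deprivation in Mef2c-cKO mice also called none, against 0.0234% of all genes, and no member had an unadjusted p of at most 0.05 by limma, against 3.05% of all genes; edgeR and DESeq2 called 0. The log2 fold changes of the 27 genes ran from -0.34 for Scn7a to 0.34 for Cacna1g. Cacna1g stood at 50.0, 75.8 and 80.2 in CS and 68.6, 77.5 and 116 in SD, and its interval ran from -0.23 to 0.91. With 3 libraries a group these intervals are wide.

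Whether the response to SD differed between genotypes was tested directly. Between Mef2c-cKO and Mef2c f/f it differed for none of the 27 genes, against 0.00778% of all genes, with 2 at an unadjusted p of at most 0.05 by limma (Cacna1h and Hcn4, against 7.81% of all genes) and 0 called by edgeR and DESeq2. Between Mef2c f/f and WT it differed for 7 genes, 4 with a higher and 3 with a lower response in Mef2c f/f, against 9.35% and 5.78% of all genes. No fold limit was set for these interactions. Scn7a had a positive difference of 0.92 ± 0.22 (SE; limma adjusted p = 0.0218), followed by Scn1a, Cacna2d1 and Cacnb4 with 0.85, 0.82 and 0.72. All 4 were called lower after deprivation in WT mice and none of them in Mef2c f/f mice. Cacna1h had a negative difference of -1.38 ± 0.39 (SE; limma adjusted p = 0.0302), followed by Hcn4 and Hcn2 with -1.16 and -0.94. Over the 27 genes these differences had a Spearman correlation of -0.866 with GC content, and over all genes of -0.768, and after the GC correction 1 member passed, Cacna1h (-0.92, adjusted p = 0.0453). The genotypes were sequenced with different totals and their columns made with different sums, so that genotype and processing cannot be told apart here. The count fell to 0 without Mef2c f/f SD 1 or Mef2c f/f SD 3, to 2 without Mef2c f/f CS 4 and to 3 without Mef2c f/f CS 2. On CPM as deposited 4 were higher and 5 lower, with the median of all genes at -0.30 against -0.05.

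The comparison of Mef2c-cKO with Mef2c f/f asks how channel transcripts differ between floxed mice with and without the Camk2a-driven Cre. Mice with Cre alone were not among the groups, and some Mef2c-cKO mice carried an allele recombined in the germline. Loss of Mef2c in excitatory neurons, that allele and Cre itself cannot be told apart here. The same direction was called in both sleep states for 7 genes: the presynaptic pores Cacna1a and Cacna1b, the sodium channel pores Scn1a and Scn8a, and the auxiliary subunits Cacnb4 and Cacna2d3 were lower in Mef2c-cKO, and Hcn4 was higher. In CS 7 of 27 genes were called, 1 higher and 6 lower, against 3.17% and 4.50% of all genes tested. In SD 10 were called, 4 higher and 6 lower, against 9.10% and 5.99%. The groups did not overlap for 9 genes in CS and 14 in SD, against 26.9% and 40.3% of all genes. The mice of the 2 sleep states are different animals.

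Cacna1a, the P/Q-type pore, was lower in both states. Its CS libraries stood at 238, 291, 296 and 325 rescaled CPM in Mef2c f/f and at 148, 149.9 and 184 in Mef2c-cKO, and its SD libraries at 229, 237 and 248 and at 139.8, 143 and 168. In both states every Mef2c-cKO library lay below every Mef2c f/f library, with log2 fold changes of -0.83 ± 0.13 (SE; limma adjusted p = 0.00899) and -0.66 ± 0.08 (SE; limma adjusted p = 0.0021). Cacna1b, the N-type pore, stood at 210.1, 267, 287 and 291 and 151, 175 and 205 in CS and at 201, 212 and 223 and 163, 164 and 184 in SD. It did not overlap either, with log2 fold changes of -0.58 ± 0.14 (SE; limma adjusted p = 0.0438) and -0.31 ± 0.07 (SE; limma adjusted p = 0.0235). Cacna1e, the R-type pore, did not pass (-0.18 and 0.00).

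Scn1a stood at 388, 396, 411 and 429 in Mef2c f/f CS and at 266, 308 and 308 in Mef2c-cKO CS, and at 406, 444 and 451 and 226, 259.8 and 293 in SD. The highest Mef2c-cKO library of each state was well below the lowest Mef2c f/f library, with log2 fold changes of -0.47 ± 0.09 (SE; limma adjusted p = 0.0219) and -0.74 ± 0.10 (SE; limma adjusted p = 0.00279). Scn8a stood at 405, 491, 494 and 582 and 339, 352 and 355 in CS and at 446, 472 and 506 and 322, 356 and 370.1 in SD. Its log2 fold changes were -0.49 ± 0.12 (SE; limma adjusted p = 0.0451) and -0.44 ± 0.08 (SE; limma adjusted p = 0.00963), without overlap. Scn3a had values above 0 in both states (0.23 and 0.18), which did not pass. After the GC correction it passed as higher in CS (0.304, limma adjusted p = 0.0317). In SD it then missed only the fold limit (0.299, limma adjusted p = 0.0119).

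Cacnb4 stood at 575, 614, 621 and 685 in Mef2c f/f CS and at 394, 424 and 474 in Mef2c-cKO CS, and at 632, 637 and 697 and 352, 438 and 469.7 in SD. No Mef2c-cKO library reached a Mef2c f/f library, and the log2 fold changes were -0.54 ± 0.10 (SE; limma adjusted p = 0.0214) and -0.65 ± 0.11 (SE; limma adjusted p = 0.00747). Cacna2d3 stood at 558, 579, 612 and 705 and 368, 421 and 504 in CS and at 588, 598 and 690.3 and 403, 415 and 473 in SD, without overlap, with log2 fold changes of -0.52 ± 0.13 (SE; limma adjusted p = 0.0476) and -0.54 ± 0.09 (SE; limma adjusted p = 0.00788). The other 3 calcium channel beta genes and the other 3 alpha2delta genes passed in neither state.

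**Figure D5:**
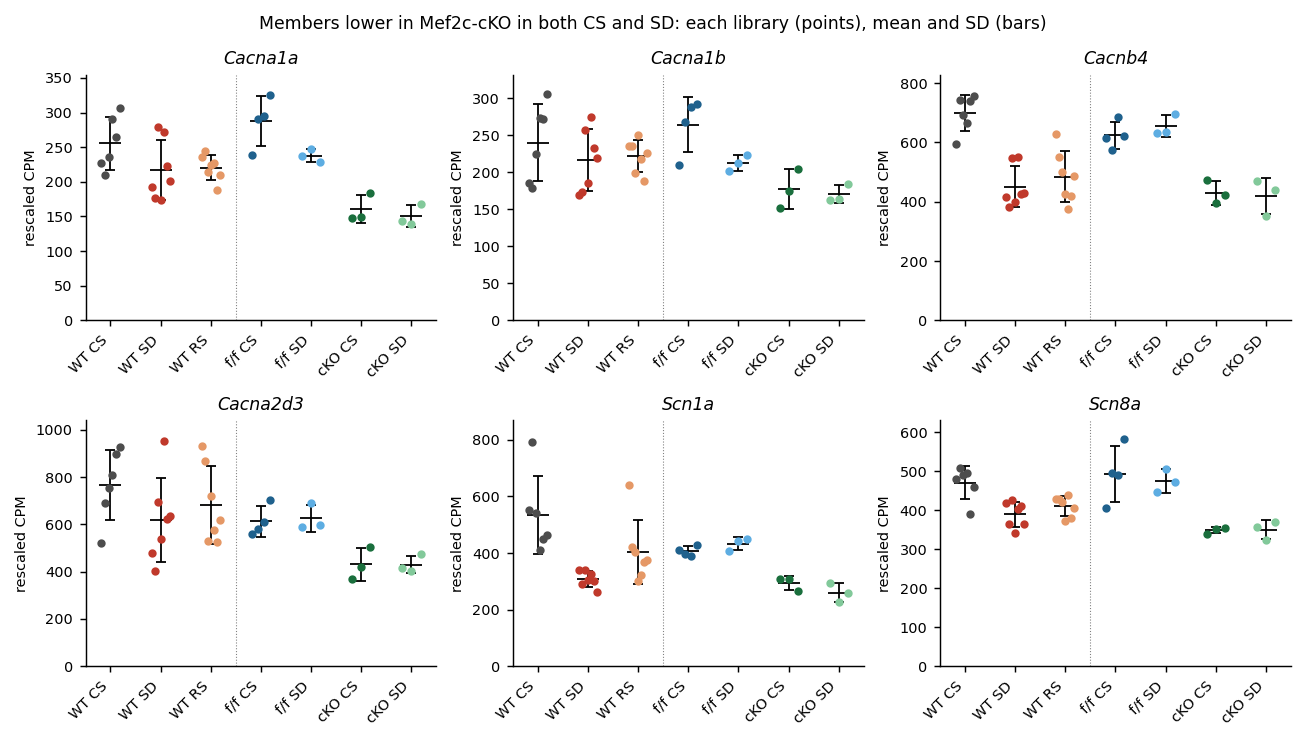
Rescaled CPM of Cacna1a, Cacna1b, Cacnb4, Cacna2d3, Scn1a and Scn8a in each of the 33 libraries (points), by genotype and sleep group, with black bars for the mean and SD of each group and vertical axes that start at 0. In all 6 genes and both sleep states the Mef2c-cKO libraries lie below the Mef2c f/f libraries without overlap.

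Hcn4 was the member that was higher in both states. It stood at 1.53, 1.81, 1.95 and 2.85 in Mef2c f/f CS and at 3.63, 4.08 and 4.11 in Mef2c-cKO CS, and at 1.03, 1.28 and 1.55 and 3.53, 4.45 and 4.67 in SD. All Mef2c-cKO libraries were above all Mef2c f/f libraries, with log2 fold changes of 0.83 ± 0.20 (SE; limma adjusted p = 0.0382) and 1.40 ± 0.16 (SE; limma adjusted p = 0.00156), on low levels for which the added 0.5 matters. Hcn3 stood at 5.89, 7.16 and 7.45 and 9.96, 11.4 and 13.9 in SD, a log2 fold change of 0.73 ± 0.14 (SE; limma adjusted p = 0.0118), and did not pass in CS (0.37), although the groups did not overlap there. Hcn2 did not pass in either state (-0.16 and 0.07).

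The remaining calls were higher in Mef2c-cKO in SD alone. Cacna1h stood at 24.8, 24.9 and 28.9 in Mef2c f/f SD and at 35.0, 47.3 and 48.0 in Mef2c-cKO SD, without overlap, a log2 fold change of 0.71 ± 0.13 (SE; limma adjusted p = 0.00931). Scn3b had a smaller difference of 0.32 ± 0.08 (SE; limma adjusted p = 0.0324). That these passed in SD and not in CS does not show that the genotypes differed more in SD, and the test of that difference, given above, called no member.

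In SD, 8 of the 10 genes kept their call whichever of the 6 libraries was left out, the exceptions being Cacna1b and Scn3b. In CS no gene did: Cacna1a lost its call only without Mef2c-cKO CS 7, and the count was 0 without Mef2c-cKO CS 7, 1 without Mef2c f/f CS 2, 3 without Mef2c-cKO CS 5, Mef2c-cKO CS 8 or Mef2c f/f CS 4, and 4 without Mef2c f/f CS 3. On CPM as deposited the split in CS was 1 higher and 3 lower, and under quantile normalization 1 gene, Cacna1a, passed as lower. In CS the Spearman correlation of these differences with GC content was -0.00366 over the 27 genes and 0.00806 over all genes. In SD it was 0.308 over the 27 genes and 0.240 over all genes. The GC trend of single libraries ran from -0.45 to -0.067 in Mef2c f/f SD and from -0.13 to 0.21 in Mef2c-cKO SD. After the GC correction 6 genes passed in CS, 5 of them among the 7, and 9 in SD, all among the 10. Markers of cell types moved with genotype: in SD the summed excitatory markers ran from 2742 to 2899 rescaled CPM in Mef2c f/f and 2095 to 2339 in Mef2c-cKO, with 4 of 8 lower and none higher, and the inhibitory markers from 719 to 803 and 1017 to 1083, with 5 of 9 higher and 2 lower. Microglial markers were higher for 4 of 5 in SD, with sums of 144 to 151 and 181 to 196. Astrocyte markers were higher for 2 of 6 in SD, and 1 of 6 oligodendrocyte markers was lower and 1 of 4 endothelial markers higher. Over all genes tested, 9.10% were called higher and 5.99% lower in SD, and 3.17% and 4.50% in CS. In CS, 1 of 8 excitatory and 0 of 9 inhibitory markers were lower and 1 of 9 inhibitory markers was higher. Also in CS, 2 of 6 oligodendrocyte markers were higher, with sums of 1517 to 1829 in Mef2c f/f and 1798 to 2465 in Mef2c-cKO, as were 2 of 5 meningeal fibroblast markers (42.2 to 48.8 and 48.2 to 78.9) and 1 of 6 astrocyte markers, and 1 of 4 endothelial markers was lower. All 5 microglial markers had values above 0 in CS (median 0.74), of which none passed, with sums of 132 to 153 and 159 to 419. Their part in the channel genes was not tested.

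Proteins that bind these channels were counted from a list of 35 genes. In WT SD, 7 of 29 tested rose and 11 fell, next to the 24.6% and 20.5% of all genes. Of the 9 partners of sodium channels 5 fell and 1 rose. Fgf14, Fgf12 and Fgf13, intracellular growth factor homologues that bind the tail of the sodium channel, had log2 fold changes of -0.88 ± 0.13 (SE; limma adjusted p = 0.000653), -0.86 ± 0.13 (SE; limma adjusted p = 0.000597) and -0.61 ± 0.15 (SE; limma adjusted p = 0.00586). Nrcam, an adhesion protein of nodes and the axon initial segment, fell by a log2 fold change of -0.58, and Sptbn4, the spectrin of those sites, rose with a value of 0.54. On CPM as deposited 2 of the sodium channel partners passed as higher and 4 as lower. Under quantile normalization it was 1 and 2, and after the GC correction 0 and 3. Of the calcium channel partners, 6 of 15 tested rose and 1 fell, and after the GC correction 1 was higher and 2 lower. Rem2, a small GTPase that holds back calcium channels, stood at 0.72 ± 0.20 (SE; limma adjusted p = 0.0112), Cacng5 at 0.54 and Cacng3, which also serves AMPA receptors, at -0.55. Pex5l, which traffics HCN channels to the dendrite, fell with a value of -0.53 ± 0.10 (SE; limma adjusted p = 0.00146). It passed as lower after the GC correction too, but neither on CPM as deposited nor under quantile normalization. All 4 genes of the sodium leak channel complex fell, among them Fam155a at -0.74, but 1 passed on CPM as deposited, 0 under quantile normalization and 1 after the GC correction. For all partners the split was 11 higher and 5 lower on CPM as deposited, 5 and 3 under quantile normalization, and 1 and 7 after the GC correction.

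In RS, 2 of 28 partners tested were higher and 8 lower, next to 9.28% and 8.22% of all genes. Between genotypes, 9 of 29 were lower in Mef2c-cKO in CS and none higher, next to 4.50% and 3.17% of all genes, and in SD 7 were lower and 4 higher, next to 5.99% and 9.10%. Pex5l was lower in Mef2c-cKO in CS, with -0.56 ± 0.14 (SE; limma adjusted p = 0.0444), and in SD, with -0.66 ± 0.11 (SE; limma adjusted p = 0.00747). Fgf14 had values of -0.88 ± 0.17 (SE; limma adjusted p = 0.0212) and -0.62 ± 0.13 (SE; limma adjusted p = 0.0183) in the same order. Deprivation called none of the partners in Mef2c f/f or Mef2c-cKO mice. Without adjustment, 3 of 27 and 1 of 29 had a limma p of 0.05 or less. Over all tested genes the shares were 17.0% in Mef2c f/f and 3.05% in Mef2c-cKO mice, so the partners did not stand out.

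Scn3a, Scn2a1, Scn1a, Scn9a and Scn7a lie side by side on chr2:65457118-66784914 (GRCm38), a span of 1328 kb, and their transcripts are 40.2% to 43.4% G or C. In WT SD the values of these neighbours were -0.41, -0.60, -0.76, -0.37 and -0.62 on the log2 scale, all below 0, with Scn9a the one that did not pass. After the GC correction the 4 members among them did not share a direction, with 0.08 for Scn3a, -0.32 for Scn1a, 0.12 for Scn9a and -0.09 for Scn7a, and Scn1a alone passed. Between genotypes in SD they did not move as a block, since Scn1a was lower in Mef2c-cKO while Scn3a had a value of 0.18 and Scn2a1 of -0.27.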

How the data were processed

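Frontal cortex RNA of 33 mice was measured in 1 CPM table. Per the study's methods, the authors prepared stranded polyA libraries, aligned reads to mm10 with STAR, counted them with HTSeq, and converted counts to CPM with edgeR, and the deposited values are CPM that hold whole reads: dividing each library by its smallest value above 0 gave whole counts for 100% of 711645 values (within 0.01). The annotation release is not given in the sources used here. Columns of no sample numbered 0.

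CPM were divided by median-of-ratios size factors over 11570 genes, 0.5 was added and log2 taken. Groups compared were fitted alone with limma 3.58.1 in R 4.3.3 (lmFit, eBayes with trend), after a filter that asked for CPM at or above 1 in every library of a compared group. Calls needed an adjusted p (Benjamini-Hochberg, over all genes tested) of 0.05 or less and a log2 fold change of 0.3 or more in size, a size limit that interactions did not have. The limma fit of the CS to SD comparisons was also run on simulated counts. These had no GC trend and were not rescaled, so the size factors, the GC correction and the interactions were not tested by them. Alternatives were CPM as deposited, quantile normalization, pseudocounts of 0.1 and 1, no filter or a filter of 5 CPM, edgeR 4.0.16 and DESeq2 1.42.0 on the recovered reads, a correction for GC content and length (splines with 5 and 4 degrees of freedom), all groups in one fit, no fold threshold, a replicate block, and leaving out each library. Coordinates, exon lengths and GC content came from GENCODE M21 on GRCm38, matched by symbol for 19230 genes and by older symbol for 241, with 26 ambiguous and 2068 not found. Every gene of the name rule, Mef2c, and the 10 partners with the largest called changes in WT SD were to be named, but 3 of the 34 genes of the rule are not reported here, although they stayed in every fit. The members and lists were chosen with earlier results of these data known. Overlaps of group ranges and correlations with GC content are descriptions. Read totals bound counting error only, and p-values measure the spread between mice.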

Additional observations from a re-analysis of the deposited data

Results flagged for a closer look

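In 8 of 108 pairs of a gene and a group of 4 to 7 libraries, the highest or lowest library lay further from its nearest neighbour than Dixon's limit for that number of libraries, where chance gives about 1 in 20. Library WT CS 2 was the highest of its group for Cacna2d1 (1435 rescaled CPM against 924 for the next) and Scn3a (205 against 166), both genes that fell in SD. Without this library, both kept their call in WT SD. The same library had the most negative GC trend of the WT CS group, a Spearman rho of -0.75. Library WT RS 1 was the highest of its group for Scn1a (640.0 against 423) and had a GC trend of -0.27, the lowest of its group. Library WT RS 4 was the highest for Hcn4 (10.1 against 5.98) and Cacna2d2 (66.6 against 43.8).

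For Cacna2d4, WT SD 4 stood at 5.61 against 3.77 for the next and WT RS 2 was the lowest of its group at 2.66 against 3.30. Library Mef2c f/f CS 4 stood at 7.53 for Scn9a against 5.10.

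The response to SD differed between Mef2c f/f and WT mice by the interaction test for 7 genes. The difference, Mef2c f/f minus WT on the log2 scale, was 0.92 for Scn7a (limma adjusted p = 0.0218), 0.85 for Scn1a (0.0186), 0.82 for Cacna2d1 (0.0217) and 0.72 for Cacnb4 (0.018). It was -1.38 for Cacna1h (limma adjusted p = 0.0302), -1.16 for Hcn4 (0.0284) and -0.94 for Hcn2 (0.0336).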

How the results depend on the processing

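In WT SD 15 genes were called, 4 after the correction for GC content and length and 11 to 15 when 1 library was left out. For WT RS, 7 became 4 under quantile normalization, 1 without the filter, 1 after the GC correction and 0 to 11 without a library. For Mef2c f/f SD, 0 became 1 with DESeq2 and 0 to 3 without a library, with 3 called without Mef2c f/f CS 1. Between genotypes in CS, 7 became 4 on CPM as deposited, 1 under quantile normalization, 4 without the filter and 0 to 6 without a library, and in SD 10 became 8 to 11. The 7 response differences between Mef2c f/f and WT became 1 after the GC correction and 0 to 9 without a library. Among the called genes, reversed values in WT SD were those of Cacna1e under quantile normalization (0.0729) and of Hcn2 (-0.0117) and Scn3a (0.0816) after the GC correction. The share of all genes called under each alternative is not given here, so these shifts are not set against those of other genes. The cause of these shifts was not tested.

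Counted over genes and comparisons, the 46 calls all held with pseudocounts of 0.1 and 1, 45 held with DESeq2 and 43 with edgeR, 37 on CPM as deposited, 31 without the filter, 28 under quantile normalization and 17 after the GC correction. Over the fits without a library, 383 of 535 held. Scn1a, Scn8a, Cacna1a, Cacna1h, Cacna2d3, Cacnb4 and Hcn3 kept their call between genotypes in SD in every alternative run, and so did Hcn4, which the filter of 5 CPM removed, in the others.

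Libraries of 2 groups with the same number are different mice, and their deviations from the group means did not go together for all numbers, with correlations of -0.329 to 0.554 between WT CS and SD, 0.0681 to 0.666 between WT CS and RS and 0.0467 to 0.265 between CS and SD of Mef2c f/f. With the replicate block the counts were 0 in WT SD (15 at an unadjusted p of at most 0.05 by limma), 13 in WT RS and 0 for the difference between Mef2c f/f and WT (9 at that unadjusted p), and the block changed no other count. The genotypes shared too few numbers for a block. Of the genes tested, Hcn4, Hcn3 and Cacna2d4 reached the lowest values, 1.08, 1.76 and 2.30 CPM, and groups of 3 leave wide intervals.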
